A study of Mus musculus with 4 samples.

Results

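The JmjC histone demethylases outside the KDM6 group were examined in embryoid bodies treated with the KDM6 inhibitor GSK-J4. The family was taken as 10 genes in 5 subfamilies: Kdm2a and Kdm2b, Kdm3a, Kdm4a, Kdm4b and Kdm4c, Kdm5a and Kdm5b, and Kdm7a and Phf8. Members were found by gene symbol, as array probe sets that the platform annotation gives a single symbol. That left 9 of the 10 genes among 22180 genes on the array, since the probe set of Kdm2b also carries a second symbol, so Kdm2b has no value here. Each of the 9 had 1 such probe set, and all 9 passed the filter on dim genes, a mean of at least 6.59 on the log2 scale over the 4 arrays, as 13308 genes did. The question was whether transcripts of related demethylases were higher with this inhibitor. KDM6 activity itself was not measured on the arrays.

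R1, a mouse embryonic stem cell line, was depleted of feeder cells and differentiated as embryoid bodies (EBs), floating aggregates, for 18 h without the cytokine LIF. EBs were kept in EB medium with 1.88 µM GSK-J4, with 1.88 µM GSK-J5, with DMSO or with no addition, and each of these 4 treatments has 1 array. GSK-J4 is a cell-permeable ester of GSK-J1, and GSK-J5 is the ester of its pyridine regioisomer GSK-J2, which has little activity on KDM6 enzymes. No treatment was repeated and a single cell line was used, so there is no spread between replicates, no p-value, and no difference below has a replicate check.

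JmjC demethylases are oxygenases that use iron and 2-oxoglutarate to remove methyl groups from histone lysines. Each subfamily prefers certain lysines, some of which carry activating marks and others repressive ones. In embryonic stem cells several of them act on promoters of developmental genes, and GSK-J1, which competes with 2-oxoglutarate, has also been reported to act on KDM5 enzymes. Inhibition of an enzyme need not show in its transcript, which is what the arrays measured.

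Transcripts of most of the family lay close to the controls in GSK-J4. Kdm7a and Kdm4a stood highest above them, at 1.47-fold and 1.34-fold over the nearest control, and Kdm4c stood lowest, 0.24 on the log2 scale below it. No subfamily moved as a whole by the rule of size used here. The margin of a gene is the distance of GSK-J4 to the nearest of the GSK-J5, DMSO and EB medium arrays, positive above them all, negative below them all and 0 inside their range. A gene was counted when its margin reached 1.5-fold, which is 0.585 in log2 units. By this rule 0 of the 9 genes were higher and 0 were lower, beside 2.21% and 0.842% of all genes that passed the filter.

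The promoters of Kdm7a and Kdm4a are shown because these are the 2 members farthest above the controls, chosen after their values were seen. Each window runs from 250 bases before to 50 after a RefSeq transcript start of the GRCm38.p6 mouse assembly, written 5′ to 3′ on the gene's strand, with CpG dinucleotides in capitals. The Kdm7a window is chr6:39206724-39207023 on the minus strand, and the Kdm4a window is chr4:118179994-118180293 on the minus strand.
Kdm7a: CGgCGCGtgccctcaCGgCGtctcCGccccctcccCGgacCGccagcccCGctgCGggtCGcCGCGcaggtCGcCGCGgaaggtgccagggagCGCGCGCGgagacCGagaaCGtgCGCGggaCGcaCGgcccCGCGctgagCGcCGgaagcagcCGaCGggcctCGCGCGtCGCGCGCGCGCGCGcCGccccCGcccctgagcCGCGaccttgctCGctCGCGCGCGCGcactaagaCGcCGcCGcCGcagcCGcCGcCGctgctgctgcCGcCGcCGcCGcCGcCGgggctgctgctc
Kdm4a: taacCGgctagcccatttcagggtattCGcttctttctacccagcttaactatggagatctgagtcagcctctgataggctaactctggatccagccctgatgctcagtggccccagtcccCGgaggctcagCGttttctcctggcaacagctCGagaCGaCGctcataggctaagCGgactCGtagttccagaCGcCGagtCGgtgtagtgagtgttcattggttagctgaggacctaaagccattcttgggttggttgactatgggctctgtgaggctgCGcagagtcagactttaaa
The Kdm7a window held 65 CpGs and was 82.7% G or C, against 13 CpGs and 53.3% for Kdm4a. Of 32851 promoter windows of this length 1 held more CpGs than that of Kdm7a, and 11920 held more than that of Kdm4a. Over all windows the median was 7 CpGs and 52.7% G or C. CpG-rich promoters are usually unmethylated, and methylation was not measured on these arrays.

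Windows were found for 7 of the 10 genes, 13 in all, since Kdm2b, Kdm3a and Kdm4c have several starts. Their CpG counts ran from 0, in windows of Kdm3a and Kdm4c, to the 65 of Kdm7a. Both strands were searched for TGATGNAA, the composite element through which ATF4 and C/EBP factors act, and for ACGTG, a core shared by sites for hypoxia-inducible and E-box factors. TGACGTCA, the cAMP response element, was searched as well. TGATGNAA was in 0 of the 13 windows, and in 3.97% of all promoter windows. ACGTG was in 4 windows, one each of Kdm4c, Kdm5b, Kdm7a and Phf8, and in 19.6% of all. In Kdm7a it begins at base 112 of the printed window. TGACGTCA was in the Phf8 window and in 1.79% of all windows. None of the 3 is in the printed Kdm4a window. A match says only that these letters are present.

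**Figure D1:**
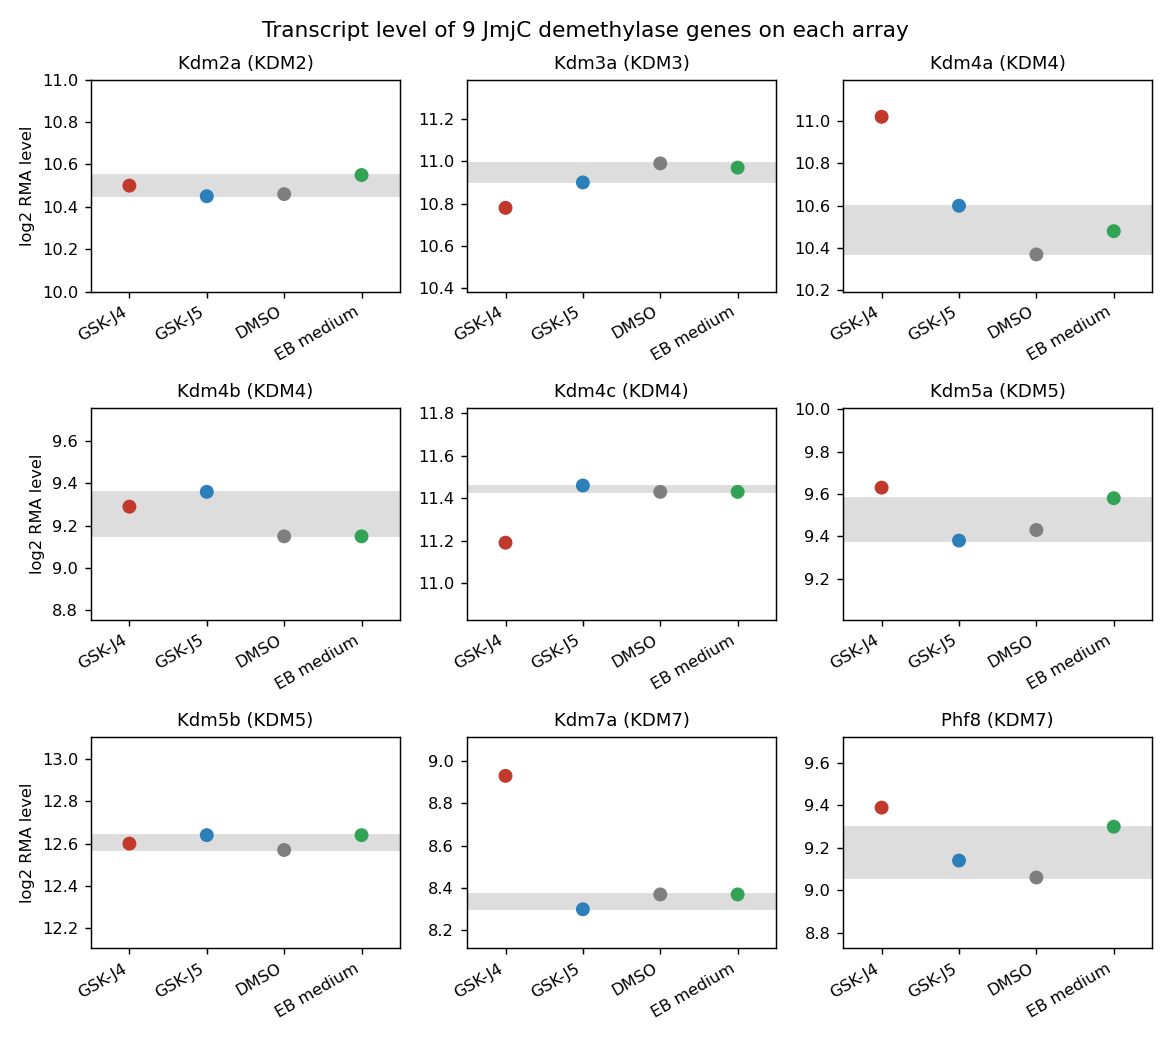
Transcript level (log2 RMA value) of the 9 measured JmjC demethylase genes on each of the 4 arrays, 1 point per array, with the subfamily in brackets. The grey band spans the 3 control arrays, and each panel covers 1 log2 unit; Kdm7a and Kdm4a lie 0.56 and 0.42 above the band in GSK-J4, and Kdm4c 0.24 below it.

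The KDM7 genes come first, since Kdm7a had the largest margin of the 9 measured. KDM7A (also JHDM1D) removes dimethyl marks from histone H3 lysines of silent chromatin, among them the lysine that KDM6 enzymes act on. Its gene read 8.93 in GSK-J4, against 8.30 in GSK-J5, 8.37 in DMSO and 8.37 in EB medium. The GSK-J4 array stood apart, and the 3 controls lay within 0.07 of each other. The differences were 0.63, 0.56 and 0.56, or 1.55-fold, 1.47-fold and 1.47-fold, so Kdm7a passed 1.5-fold against GSK-J5 alone. That call was lost under repeated quantile normalization, where its difference from GSK-J5 was 0.53, and under loess, where it was 0.575, just short of the threshold of 0.585. Of all genes that passed the filter, 338 (2.54%) had a margin as high as that of Kdm7a (0.56). A second probe set carries Kdm7a together with a long non-coding RNA and was not used.

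PHF8, linked to X-chromosomal intellectual disability in humans, removes mono- and dimethyl marks of silent chromatin and binds promoters through a PHD finger. Phf8 read 9.39 in GSK-J4, against 9.14 in GSK-J5, 9.06 in DMSO and 9.30 in EB medium. GSK-J4 was the highest array, but by a margin of 0.09, less than the 0.24 between the control arrays. Without the EB medium array that margin was 0.25.

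In the KDM4 subfamily the 3 genes lay on different sides of the controls. These enzymes remove trimethyl marks from H3 lysines of heterochromatin and of transcribed gene bodies. Kdm4a read 11.02 in GSK-J4, against 10.60 in GSK-J5, 10.37 in DMSO and 10.48 in EB medium. GSK-J4 was above all controls, which themselves spread over 0.23, with GSK-J5 the highest of them. The differences were 0.42 from GSK-J5, 0.65 from DMSO and 0.54 from EB medium, so Kdm4a passed 1.5-fold against DMSO alone, at 1.57-fold. A margin as high as that of Kdm4a (0.42) was found in 631 genes (4.74%).

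KDM4C supports self-renewal of mouse embryonic stem cells. Kdm4c read 11.19 in GSK-J4, against 11.46 in GSK-J5, 11.43 in DMSO and 11.43 in EB medium. The controls lay within 0.03 of each other, the narrowest spread in the family, and GSK-J4 lay 0.24 below the lowest, or 1.18-fold. A margin as low was found in 988 genes (7.42%). Kdm4b, a hypoxia-responsive member, read 9.29 in GSK-J4, against 9.36 in GSK-J5, 9.15 in DMSO and 9.15 in EB medium. Here the 2 compound arrays were high and the other two low, and GSK-J4 lay inside the control range. GSK-J5 exceeded DMSO by 0.21 for Kdm4b and by 0.23 for Kdm4a, the widest differences between these arrays in the family. Without the GSK-J5 array, Kdm4b would have a margin of 0.14.

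KDM5A and KDM5B remove methyl groups from the H3 lysine that marks active promoters. Kdm5a read 9.63 in GSK-J4, against 9.38 in GSK-J5, 9.43 in DMSO and 9.58 in EB medium. GSK-J4 was highest, with a margin of 0.05 over EB medium and of 0.20 without that array. Kdm5b, which contributes to the balance of self-renewal and differentiation in embryonic stem cells, read 12.60 in GSK-J4, against 12.64 in GSK-J5, 12.57 in DMSO and 12.64 in EB medium. Its 4 arrays lay within 0.07, and GSK-J4 was inside the control range. Without the DMSO array the margin of Kdm5b was −0.04.

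KDM3A, which removes mono- and dimethyl marks of silent chromatin and is induced by hypoxia, is the single KDM3 gene of the family here. Kdm3a read 10.78 in GSK-J4, against 10.90 in GSK-J5, 10.99 in DMSO and 10.97 in EB medium. GSK-J4 was the lowest array, with a margin of −0.12, and 18.0% of the genes that passed the filter had a margin as low as that of Kdm3a. Without the GSK-J5 array the margin of Kdm3a was −0.19. KDM2A binds CpG islands through a CXXC zinc finger and removes dimethyl marks there. Kdm2a read 10.50 in GSK-J4, against 10.45 in GSK-J5, 10.46 in DMSO and 10.55 in EB medium, inside the control range. Without the EB medium array it lay above the others, by 0.04. KDM2B, its paralogue, brings a variant Polycomb complex, PRC1.1, to CpG islands.

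**Figure D2:**
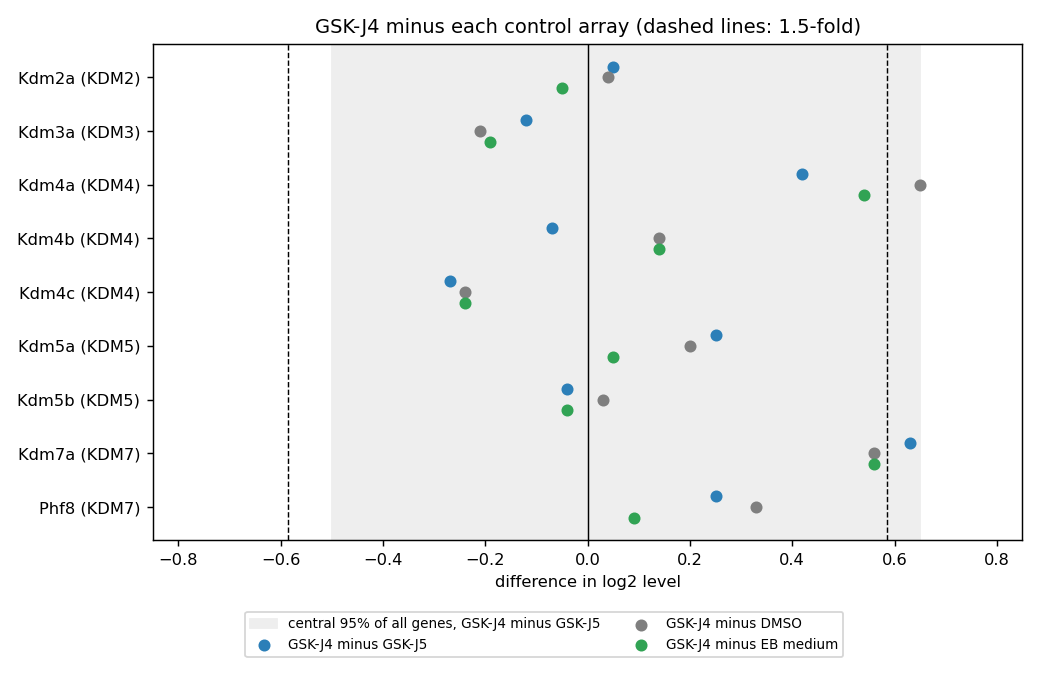
Difference in log2 level of the GSK-J4 array from the GSK-J5, DMSO and EB medium arrays for the 9 measured genes. Dashed lines mark 1.5-fold, and the grey field holds the central 95% of all genes that passed the filter for GSK-J4 minus GSK-J5, −0.50 to 0.65; Kdm7a passes the line against GSK-J5 and Kdm4a against DMSO.

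Set against each control in turn, the family gave counts of 0 or 1. By 1.5-fold GSK-J4 was higher than GSK-J5 in 1 of 9 genes (Kdm7a), beside 3.28% of all genes, and lower in 0, beside 1.39%. The count higher was 0 under both repeated quantile normalization and loess. Against DMSO it was higher in 1 (Kdm4a), beside 3.89%, and lower in 0, beside 1.57%. Against EB medium it was higher in 0, beside 2.96%, and lower in 0, beside 1.68%. With so few genes, a single one is a larger share than the background, and nothing was read from it.

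The median difference over the 9 genes was 0.05 from GSK-J5, 0.14 from DMSO and 0.05 from EB medium. Over all genes that passed the filter these medians were 0.00, 0.01 and 0.00. Of the 9 genes, 5 were above GSK-J5, beside 49.8% of all genes that passed the filter, 7 were above DMSO, beside 51.5%, and 5 were above EB medium, beside 49.0%. By any amount, 4 of 9 lay above all controls (38.0% of all genes did), 2 lay below all (35.5%), and 3 lay inside the control range. The 3 comparisons share the GSK-J4 array, so they are not independent of each other.

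At a lower threshold, a margin of 0.322 in log2 units, 2 of 9 genes were higher, Kdm7a and Kdm4a, beside 7.18% of all genes, and 0 were lower, beside 3.96%. Among the controls no member stood out. At the same threshold 0 of the 9 genes had a control array beyond the other 2 controls, in either direction, beside 2.27% of all genes. The spread of the 3 controls had a median of 0.10 over the 9 genes, and of 0.12 over all genes that passed the filter.

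The 2 compounds, given at the same dose and time, can be compared directly with the vehicle. GSK-J5 differed from DMSO by −0.09 (Kdm3a) to 0.23 (Kdm4a) over the family, with a median of 0.03, and passed 1.5-fold in 0 of the 9, beside 0.0526% of all genes higher and 0.120% lower. GSK-J4 differed from DMSO by −0.24 (Kdm4c) to 0.65 (Kdm4a). For Kdm4a the control compound itself stood above DMSO and EB medium. For Kdm7a it stood 0.07 below both.

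**Figure D3:**
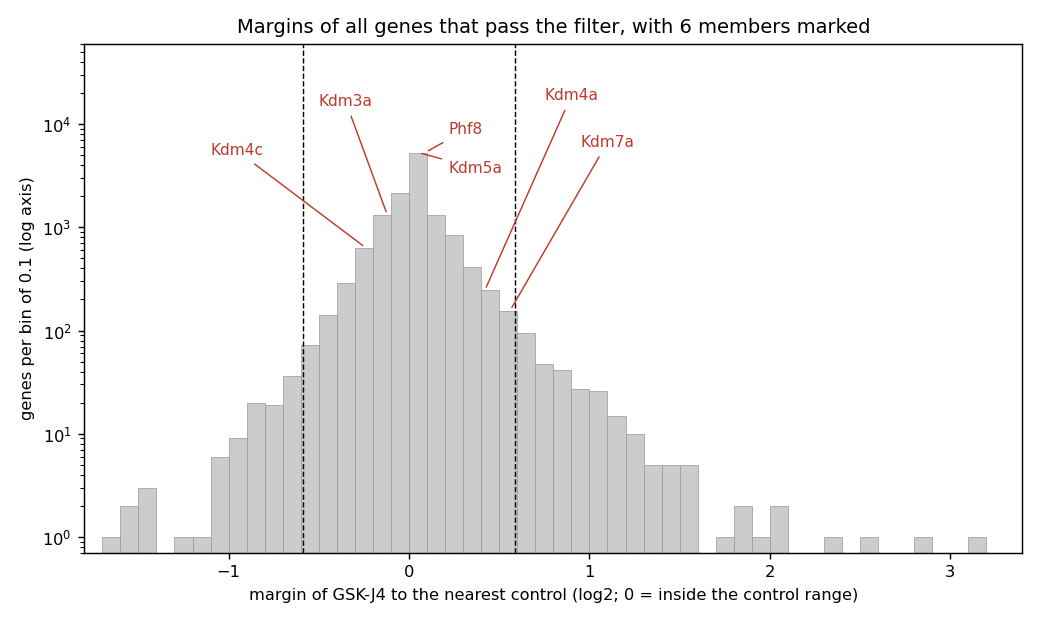
Number of genes (log axis) by the margin of GSK-J4 to the nearest control (log2, bins of 0.1) for the 13308 genes that passed the filter, with the 6 members outside the control range marked. Dashed lines mark 1.5-fold; Kdm7a, at 0.56, lies just inside the upper line.

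The 5 genes whose profile over the 4 arrays was most like that of Kdm7a were Fuca2, Kidins220, Atf4, C920006O11Rik and Prkdc. Fuca2 encodes a fucosidase, Kidins220 a neurotrophin receptor scaffold, Atf4 a stress-response transcription factor and Prkdc the kinase DNA-PKcs. Likeness was the root mean square distance of log2 profiles, each gene centred on its own mean, and it ran from 0.0071 (Fuca2) to 0.019 (Prkdc). Their margins were 0.54 to 0.57. With 4 arrays, of which 3 are alike, such a profile is set almost wholly by the distance of GSK-J4 from the controls.

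Other genes for proteins with a JmjC domain, some of them relatives within the same subfamilies, had a narrower range of margins. The median margin was 0 in both sets. Of the measured others 28.6% lay above all controls and 35.7% below all, beside 30.6% and 36.3% of all 22180 genes. Of 18 listed genes 14 had a single-symbol probe set and 12 passed the filter. Of these 12, 0 were counted higher, beside 2.21% of all genes that passed the filter, and 0 lower, beside 0.842%. The margins of the 14 ran from −0.15 (Jmjd1c, a KDM3 relative) to 0.11 (Hif1an, an asparagine hydroxylase that limits HIF). Their median difference was −0.015 from GSK-J5 and 0.005 from DMSO. Hspbap1, which encodes a protein that binds a small heat shock protein, followed Jmjd1c with a margin of −0.12. Kdm3b and Kdm5c, paralogues of Kdm3a and Kdm5a, lay inside the control range, as did Phf2 of the KDM7 group. Kdm4d and Kdm5d were the 2 that did not pass the filter. LSD demethylases use flavin in place of iron. Both of their genes lay below all controls by little, as 35.5% of the genes that passed the filter did. Kdm1a had a margin of −0.09 and Kdm1b of −0.06.

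Among the KDM6 genes, the targets of GSK-J4, Kdm6b had the widest margin, at 0.38 (10.22 in GSK-J4, against 9.82 in GSK-J5, 9.84 in DMSO and 9.77 in EB medium). That is less than the margin of Kdm7a (0.56) and close to that of Kdm4a (0.42). A margin as high as that of Kdm6b was found in 754 genes (5.67%). For Kdm6a and Uty the margins were 0.01 and 0.07. All 3 KDM6 genes thus lay above all controls, as 38.0% of the genes that passed the filter did. A second probe set of Kdm6b had a margin of 0.02, but its mean of 6.29 lay below the filter level of 6.59.

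The enzymes that place the marks were listed as well. Of 21 histone methyltransferase genes 18 were measured, and all 18 passed the filter. By 1.5-fold 0 were higher, beside 2.21% of all genes that passed the filter, and 0 were lower, beside 0.842%. The farthest was Ehmt2, which encodes the H3K9 methyltransferase G9a. It read 10.77 in GSK-J4, against 11.33 in GSK-J5, 11.36 in DMSO and 11.41 in EB medium, a margin of −0.56. Ehmt1, which encodes its partner GLP, read 10.31 in GSK-J4, against 10.54 in GSK-J5, 10.59 in DMSO and 10.59 in EB medium. Both were lowest in GSK-J4, as 35.5% of the genes that passed the filter were, with controls within 0.08 and 0.05 of each other. Margins as low were found in 0.999% (Ehmt2) and 8.09% (Ehmt1) of those genes. Of the other measured H3K9 genes, Setdb1 had a margin of −0.06, while Setdb2 lay above all controls (0.18).

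The other classes stayed within smaller margins. Setd2 and Smyd2 of the H3K36 class had margins of −0.27 and −0.26, while Kmt2d (0.20) and Kmt2a (0.10) were the farthest of 6 H3K4 genes. In the H4K20 class Kmt5b had 0.13 and Kmt5a −0.06. Of the partners of KDM2B in PRC1.1, 6 of 7 were measured, with Bcorl1 at −0.32 and Pcgf1 at 0.14. Of these 6, 0 were counted higher, beside 2.21% of all genes that passed the filter, and 0 lower, beside 0.842%. Over the 18 methyltransferase genes the median difference from GSK-J5 was −0.03 and from DMSO 0.02, beside 0.00 and 0.01 over all genes.

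**Figure D4:**
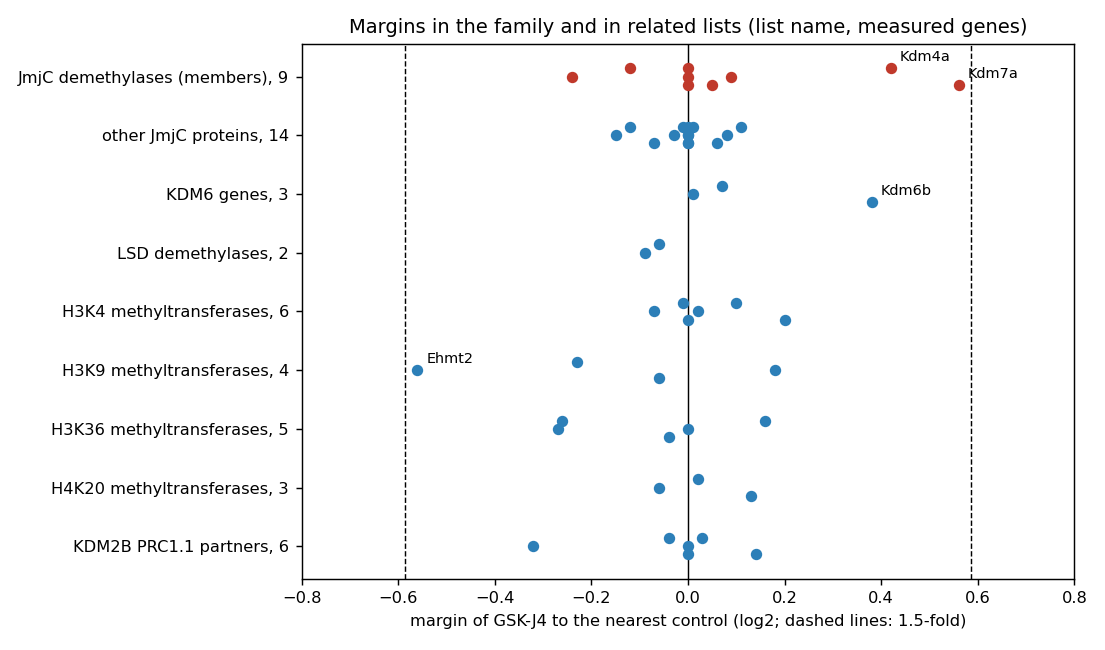
Margin of GSK-J4 to the nearest control (log2) for the 9 JmjC demethylase genes (top row) and for related lists, 1 point per measured gene, with the number of measured genes beside each name. Genes with a margin beyond 0.322 in either direction are named. Of all those shown 0 pass 1.5-fold (dashed lines), beside 2.21% higher and 0.842% lower of all genes that passed the filter.

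The labelled cell type was checked against markers. Of 8 pluripotent stem cell markers 7 passed the filter, with Sox2 at 13.02 and Nanog at 13.05 in GSK-J4, and Dppa5a did not. In GSK-J4, 5 of the 8 were below all controls, the dim Dppa5a among them, beside 36.3% of all 22180 genes. The farthest was Tdgf1, an early epiblast gene (−0.36). Of 7 measured feeder fibroblast markers 3 passed the filter, while Dcn, Col3a1, Lum and Postn were too dim to pass. The summed log2 level of all 7 was 41.9 in GSK-J4, against 43.1 in GSK-J5, 43.7 in DMSO and 43.1 in EB medium. That of the 3 that passed was 21.7 in GSK-J4, against 22.5 in GSK-J5, 22.4 in DMSO and 21.9 in EB medium. Of the 7, 4 lay below all controls, beside the same 36.3%. Of 5 blood and endothelial markers Pecam1 (0.37) and Cd34 (0.34) lay above all controls, as 30.6% of all genes did by any amount. Margins as high were found in 5.94% (Pecam1) and 6.84% (Cd34) of the genes that passed the filter. Ptprc, Kdr and Hbb-bh1 were below the filter, while Pecam1 read 10.72 to 10.80 in the controls. These values therefore do not show that blood or endothelial cells were present. The summed log2 level of that list, dim genes included, was 34.9 in GSK-J4, against 33.9 in GSK-J5, 33.6 in DMSO and 34.3 in EB medium. That of the 2 that passed was 19.3 in GSK-J4, against 18.5 in GSK-J5, 18.6 in DMSO and 18.6 in EB medium. Of 5 endoderm markers 3 lay above and 2 below all controls, beside 30.6% and 36.3% of all genes. Their margins ran from −0.14 to 0.10, and 3 of the 5 passed the filter. The part of these cell types in the differences above was not tested, and in bulk EBs fewer cells of a type and less RNA per cell cannot be told apart.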

How the data were processed

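Total RNA of 4 EB samples was amplified and measured on 4 Affymetrix arrays, per the labels' protocols. The deposited values are log2 expression levels. Per the submitters' processing notes the authors used RMA and Affymetrix Expression Console (version 1.2.1.20). RMA removes background, gives the arrays a common intensity distribution and summarises probe sets. The log base was inferred from the range of values (2.20 to 14.48), and no scanner files were used, so detection above background was not examined. The array medians were 6.63 to 6.65. Levels of different probe sets were not compared.

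Of 41345 probe sets 23521 had 1 gene symbol, 1814 had several and 16010 had none in the platform annotation; the first kind was used, with the brightest per gene for 1082 genes with several. 0 symbols differed from RefSeq (GRCm38.p6), which also gave the promoters. The filter was the 40th percentile of gene means. Python 3.11.15, pandas 2.3.3 and statsmodels 0.14.6 were used. The counting rule was run on simulated data whose shifts were larger than any difference in the family. That run therefore does not cover differences of the family's size. Alternatives were other filters, rescalings, probe set rules, folds and leaving out each control. All 10 members are named, with up to 2 genes by margin from each list and the 5 most like the member farthest from the controls. Further genes (Kdm3b, Kdm5c, Phf2, Kdm4d, Kdm5d, Kdm6a, Hif1an, Sox2 and Nanog among them) were chosen after their values were seen. The members and lists were chosen with earlier results of these data known.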

Additional observations from a re-analysis of the deposited data

How the results depend on the processing

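With 1 array per treatment nothing here has a replicate check, and the number of arrays and the unknown background limit the precision. No paired analysis was possible because each treatment has 1 array. As a stand-in for a replicate spread, values were called moved when they shifted by 0.133 or more on the log2 scale, the SD of GSK-J5 minus DMSO over all genes that passed the filter. Of the 27 differences of the 9 genes from the 3 controls, 27 kept their sign under each of the rescalings. Some were small there, such as 0.005 for Kdm2a from DMSO and −0.01 for Kdm5b from GSK-J5. The filters, the probe set rule and leaving out another control could not change these differences, as each gene has 1 probe set. The count of members beyond all 3 controls was 0 in both directions under each alternative, except at the lower threshold of 0.322, where 2 were higher. Against GSK-J5 the count of 1 higher became 0 under repeated quantile normalization, under loess and at 2-fold, and 2 at the lower threshold. Against DMSO the count of 1 became 3 at the lower threshold and 0 at 2-fold. Against EB medium the count of 0 became 2 at the lower threshold. Under the rescalings the Kdm7a margin was 0.46 to 0.56 and its difference from GSK-J5 0.53 to 0.66, and the Kdm4a margin was 0.40 to 0.45. Medians over the family under the rescalings were 0.01 to 0.08 from GSK-J5, 0.06 to 0.15 from DMSO and 0.01 to 0.05 from EB medium. Leaving out GSK-J5 gave margins of 0.54 for Kdm4a, 0.14 for Kdm4b and −0.19 for Kdm3a. Leaving out EB medium gave 0.20 for Kdm5a, 0.25 for Phf8 and 0.04 for Kdm2a, and leaving out DMSO gave −0.04 for Kdm5b. Over all genes the counts of 294 higher and 112 lower became 955 and 527 at the lower threshold, 76 and 14 at 2-fold, and 191 higher with a filter at the 60th percentile.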
